A study of Mus musculus with 6 samples.

Results

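Kdm1a, Kdm1b, Kdm2a, Kdm2b, Kdm5a and Kdm5b encode histone demethylases of the LSD1, KDM2 and KDM5 families, and their transcripts were followed in ureteric bud (UB) cells in which Ash2l, a gene of the machinery that writes histone H3 lysine 4 methylation, was deleted. The genes were chosen by name, and all 6 were found among the 17189 genes of the deposited count table. The rule that names them uses no measured value, though the members were chosen with earlier results of these data known. The study sequenced RNA of UB lineage cells, the branching epithelium that forms the collecting ducts of the kidney, sorted by fluorescence from mouse embryos at E16.5. Control embryos were Hoxb7Cre-GFP+, Ash2l F/+ and conditional knockout (cKO) embryos were Hoxb7Cre-GFP+, Ash2l F/F, with 3 libraries in each group and no treatment. Cre is driven by Hoxb7, a gene of the UB lineage, and the labels do not give the share of sorted cells that lost Ash2l. Both groups therefore carried the Hoxb7-driven Cre-GFP transgene and at least 1 floxed Ash2l allele, and no group without Cre was included in the comparison. The labels call the libraries biological replicates but do not say whether each holds 1 embryo or a pool. Every p below sets a group difference only against the spread of these libraries, part of which may be technical.

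Methylation of histone H3 at lysine 4 (H3K4) marks active promoters and enhancers. The complexes that write it need ASH2L for full activity, and demethylases remove it. KDM1A (LSD1) and KDM1B (LSD2) are flavin-dependent amine oxidases that act on mono- and dimethylated H3K4, whereas KDM5A and KDM5B are JmjC-domain dioxygenases that act on di- and trimethylated H3K4. KDM2A and KDM2B are JmjC proteins with a CXXC zinc finger that binds unmethylated CG dinucleotides. KDM2A is best known as a demethylase of H3 lysine 36, and removal of H3K4 methylation is described less uniformly for the KDM2 family. KDM2B also brings the Polycomb complex PRC1.1 to CpG islands.

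Kdm2b had the highest mean CPM of the 6 genes in both groups, with Kdm5b above it in cKO replicate 2 only, and its gene count pools transcripts from separate starts. RefSeq lists 4 start windows for it in GRCm38.p6, at 2 places with window starts up to 88.7 kb apart. Transcripts from the internal start are known to encode a short form that lacks the JmjC domain and keeps the CXXC finger, so a Kdm2b count cannot be read as a count of demethylase transcripts. Of the 6 genes, 4 had a promoter window in the RefSeq table (Kdm1a, Kdm1b, Kdm2b and Kdm5b). The first and the last Kdm2b window along the chromosome are shown on the strand of the gene (minus), each 300 bases with 250 before and 50 after the start. Capitals mark each CG, the letters read by the CXXC finger, which are the same on both strands.
Kdm2b upstream start, chr5:122989050-122989349: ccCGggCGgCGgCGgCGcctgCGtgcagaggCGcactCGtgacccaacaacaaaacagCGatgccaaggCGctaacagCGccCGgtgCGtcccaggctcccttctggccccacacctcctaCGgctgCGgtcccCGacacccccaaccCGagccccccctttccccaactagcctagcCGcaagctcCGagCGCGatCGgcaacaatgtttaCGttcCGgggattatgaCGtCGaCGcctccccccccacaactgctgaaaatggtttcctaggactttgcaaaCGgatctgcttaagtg
Kdm2b internal start, chr5:122900301-122900600: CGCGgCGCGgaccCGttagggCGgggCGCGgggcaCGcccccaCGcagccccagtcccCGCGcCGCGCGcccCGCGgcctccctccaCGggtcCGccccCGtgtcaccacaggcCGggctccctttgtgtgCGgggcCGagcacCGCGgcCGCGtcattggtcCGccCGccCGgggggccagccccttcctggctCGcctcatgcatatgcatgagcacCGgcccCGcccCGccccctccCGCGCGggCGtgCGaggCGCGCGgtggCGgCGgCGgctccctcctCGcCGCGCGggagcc
The upstream window shown held 28 CG and the internal window shown 49. The other upstream window held 18 CG and the other internal window 47. Over the 32851 RefSeq windows of this length the median was 7 CG, and 94.6% held at least 1. The windows of Kdm1a, Kdm1b and Kdm5b held 29, 26 and 17 CG. These are descriptions of the reference sequence, and no binding or methylation was measured in these libraries.

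Library totals ranged from 9620235 to 10538314 counts. cKO replicate 3 stood apart from the rest: it lists 0 for 1453 of the 11738 genes (12.4%) that exceed 10 counts in all the others, a pattern found for no more than 3 genes elsewhere. None of the 6 demethylase genes was listed at 0 in any library, and results are given with and without this library. Ash2l, the targeted gene, was at 189.8, 176 and 159 CPM (counts scaled to library size, here with TMM factors) in control replicates 1, 2 and 3 and at 46.1, 29.7 and 21.4 CPM in the cKO replicates. The groups did not overlap, and Ash2l fell (log2 fold change -2.43, SE 0.284, edgeR adjusted p = 0.00786). Markers of UB epithelium were present in every library at a summed 11529 to 12962 CPM in controls and 6613 to 7711 CPM in cKO, and 6 of 15 fell (9 without cKO replicate 3). Markers of nephron epithelium and podocytes summed to 8.60 to 15.2 CPM in controls and 40.2 to 75.1 CPM in cKO, with 1 of 4 tested called higher (3 of 5 without cKO replicate 3) and the podocyte gene Nphs1 at 0 in every control. Muscle markers summed to 22.0 to 29.4 CPM in controls and 129.5 to 210.0 CPM in cKO. All 3 tested rose (Acta2, Tagln and Myl9), while Des and Myh11 were not tested. None of the tested markers of nephron progenitors, stroma, endothelium, immune or erythroid cells was called with all libraries. Without cKO replicate 3 the nephron progenitor marker Cited1 rose (edgeR adjusted p = 0.0123), as did the endothelial marker Tek (0.0249). Tek was 1 of 2 endothelial markers tested there, and the other, Kdr, was at a log2 fold change of -1.09 (edgeR adjusted p = 0.454). The 5 endothelial markers summed to only 0.785 to 4.09 CPM in controls and 0 to 5.38 CPM in all cKO libraries. Of 10 proliferation genes 8 fell, and 10 without cKO replicate 3. The part of these shifts in the values below was not tested, and in bulk samples fewer cells of a type cannot be told apart from less RNA per cell.

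None of the 6 demethylase genes was called in cKO cells at an edgeR adjusted p under 0.05. Of all 13047 genes tested 7.11% were called, 3.52% as risen and 3.59% as fallen, so 0 of 6 is near that background and is no result about these genes as a set. At an unadjusted p under 0.05 the count was also 0 of 6, against 23.1% of all genes, where Kdm1b and Kdm5a came closest. DESeq2, limma-voom and limma with library weights each called 0 of 6, beside 15.7%, 7.34% and 25.6% of all genes they tested. Without cKO replicate 3 edgeR again called 0 of 6, beside 28.5% of 13660 genes (13.7% risen, 14.9% fallen). In that comparison 1 of 6 (Kdm2b) had an unadjusted p under 0.05, beside 39.3% of all genes. A p that misses the threshold does not show that a level was the same, so each fold change is given with its 95% interval. For 5 of the 6 genes, all but Kdm2a, the interval lay within a 2-fold change in both directions, which held for 37.6% of all genes tested. With a filter of at least 10 counts in every library it was again 5 of 6, beside 51.7% of 10094 genes. The share thus depends on how many genes with few counts are included. Neither it nor the median size of change below was matched for expression level. With 1 library left out the count within 2-fold was 4 to 6 of 6, beside 28.5% to 53.6% of all genes. The 6 of 6 came without cKO replicate 3, where the share of all genes was also highest. The count was lowest without control replicate 1, control replicate 3, cKO replicate 1 or cKO replicate 2. In those fits the interval of Kdm1b also reached beyond 2-fold. In 2 of the 6 genes, Kdm1b and Kdm5a, the CPM values of the groups did not overlap, which held for 37.4% of all genes. The median log2 fold change was -0.10 over the 6 genes and -0.036 over all genes tested, and the median size of change was 0.236 and 0.438.

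**Figure D1:**
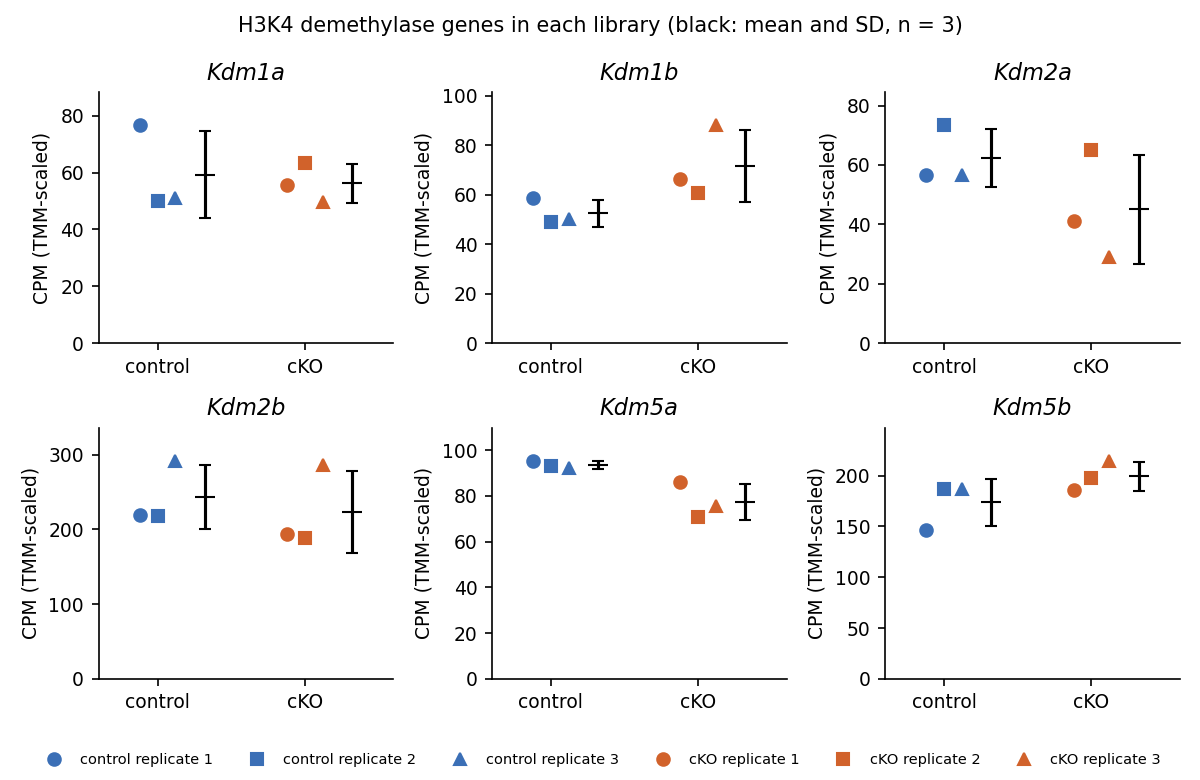
CPM, scaled by TMM factors, of the 6 demethylase genes (y axis, from 0, own scale for each gene) in the 3 control and 3 cKO libraries, with marker shape for the replicate number and black bars for mean and SD. The groups are apart for Kdm1b and Kdm5a and overlap for the other 4 genes, and the triangles show cKO replicate 3.

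Of the LSD1 family, Kdm1a (Entrez Gene 99982) encodes the catalytic subunit of CoREST repressor complexes. Its RefSeq start window lies at chr4:136602674-136602973, on the minus strand (GRCm38.p6). Kdm1a was at 76.9, 49.9 and 51.1 CPM in control replicates 1, 2 and 3 and at 55.7, 63.4 and 49.8 CPM in cKO replicates 1, 2 and 3. Control replicate 1 was the highest of all libraries and the groups overlapped. The log2 fold change was -0.075 (SE 0.221, 95% interval -0.60 to 0.45, edgeR adjusted p = 0.881), and it was 0.15 without control replicate 1.

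Kdm1b (Entrez Gene 218214) encodes LSD2, which binds transcribed gene bodies with its cofactor GLYR1 and is known for its role in setting up imprints in oocytes. Its RefSeq start window lies at chr13:47043249-47043548, on the plus strand. Kdm1b was at 58.7, 48.7 and 50.1 CPM in controls and 66.1, 60.6 and 88.2 CPM in cKO. Every cKO library lay above every control, and cKO replicate 3 was the highest. Such a separation upwards was seen for 16.7% of tested genes. The log2 fold change of 0.45 (SE 0.192, 95% interval -0.0087 to 0.91) had the smallest p of the 6 genes (unadjusted 0.0534, edgeR adjusted p = 0.225). Without cKO replicate 3 it was 0.26 (SE 0.155, edgeR adjusted p = 0.231). That cKO replicates 1 and 2 alone stayed above all controls follows from the separation with all libraries. Exons of Kdm1b overlap those of Dek, a chromatin protein gene on the opposite strand, and although the labels name a stranded kit, they do not say whether reads were counted by strand. Dek fell from 456 ± 4.71 to 275 ± 28.0 CPM (edgeR adjusted p = 0.0115). The part of Dek reads in the Kdm1b count was not tested.

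Of the KDM2 family, Kdm2a (Entrez Gene 225876) had the largest SE of the 6 genes for its log2 fold change. It was at 56.8, 73.6 and 56.6 CPM in controls and 41.3, 65.1 and 28.9 CPM in cKO. cKO replicates 1 and 3 lay below all controls, while cKO replicate 2 lay among them. The log2 fold change was -0.47 (SE 0.311, 95% interval -1.21 to 0.27, edgeR adjusted p = 0.440), so a fall of more than 2-fold lies within the interval. The estimate was -0.24 without cKO replicate 3 and -0.83 without cKO replicate 2 (adjusted p = 0.163).

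Kdm2b (Entrez Gene 30841) encodes the CpG island reader of PRC1.1. It was at 219.5, 218 and 292 CPM in controls and 194, 189 and 286 CPM in cKO. In each group 1 library was far above the other 2, replicate 3 in both, and the groups overlapped. The log2 fold change was -0.13 (SE 0.203, 95% interval -0.61 to 0.36, edgeR adjusted p = 0.775). Without cKO replicate 3 both remaining cKO libraries were below all controls, but the share of all genes with such a separation was not counted. The Kdm2b estimate was then -0.36 (SE 0.132, 95% interval -0.64 to -0.072, edgeR adjusted p = 0.0595). Without control replicate 3 it was 0.021 (adjusted p = 0.977). The sign of the Kdm2b estimate thus differed with which library numbered 3 was left out. Rnf34, whose exons overlap Kdm2b on the opposite strand, was at 86.7 ± 14.4 CPM in controls and 135 ± 34.1 CPM in cKO (edgeR adjusted p = 0.135). Exons of Gm44574 on the same strand and of A930024E05Rik on the opposite strand also overlap Kdm2b, and neither gene is in the count table.

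Of the KDM5 family, Kdm5a (Entrez Gene 214899) encodes a demethylase first known as a binding partner of the retinoblastoma protein. It was at 95.4, 93.1 and 92.0 CPM in controls and 86.1, 70.7 and 75.6 CPM in cKO. Controls lay close together and every cKO library was below them, a separation downwards seen for 20.7% of tested genes. The log2 fold change was -0.27 (SE 0.128, 95% interval -0.57 to 0.032, unadjusted p 0.0722, edgeR adjusted p = 0.267). Leaving out cKO replicate 3 gave -0.26 (SE 0.133, edgeR adjusted p = 0.160). Over 14 other settings the estimate stayed between -0.35 and -0.21 with a lowest adjusted p of 0.115. Ccdc77, whose exons overlap Kdm5a on the opposite strand, was at 41.6 ± 5.68 and 38.5 ± 15.3 CPM (adjusted p = 0.875).

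Kdm5b (Entrez Gene 75605) encodes the paralog known for high levels in several epithelial tumours. Its RefSeq start window lies at chr1:134559928-134560227, on the plus strand (GRCm38.p6). Kdm5b was at 147, 187 and 187 CPM in controls and 186, 197 and 215 CPM in cKO. Control replicate 1 was the lowest, and cKO replicate 1 lay just below the other controls, so the groups overlapped. The log2 fold change was 0.20 (SE 0.130, 95% interval -0.11 to 0.51, edgeR adjusted p = 0.426), and 0.13 without cKO replicate 3.

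**Figure D2:**
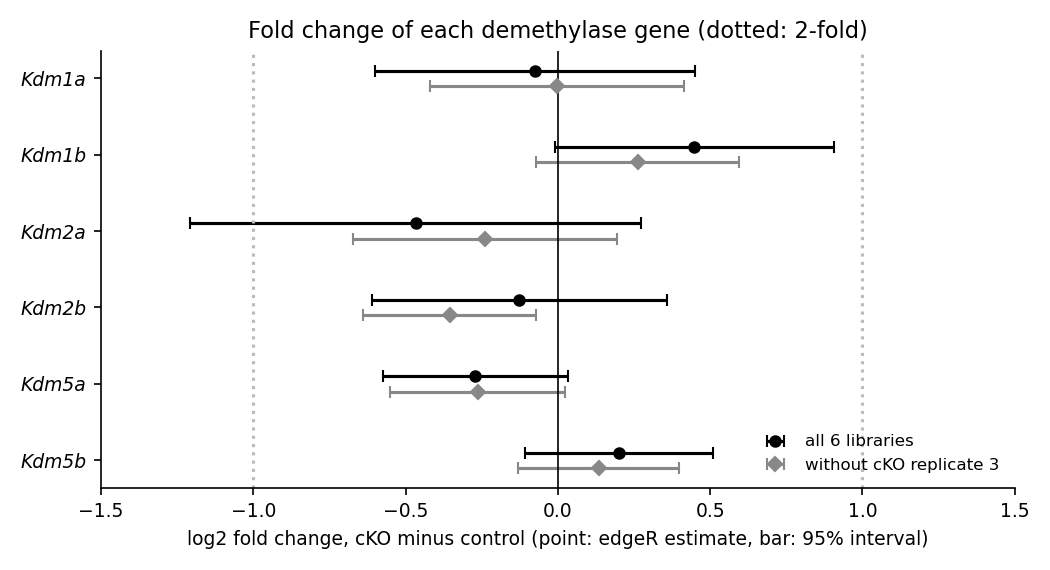
Log2 fold change of each gene, cKO minus control (x axis), with 95% intervals from the edgeR fit on all 6 libraries (black) and without cKO replicate 3 (grey). Of the 12 intervals, 11 include 0, and only that of Kdm2a with all libraries passes a dotted line at 2-fold.

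The other KDM5 paralogs sit on the sex chromosomes and are not among the 6. Kdm5c (Entrez Gene 20591), on the X, was at 16.2, 25.3 and 31.8 CPM in controls and 31.5, 37.1 and 10.4 CPM in cKO, with cKO replicate 3 the lowest of all (log2 fold change 0.11, SE 0.507, edgeR adjusted p = 0.933). Without that library the estimate was 0.48 (adjusted p = 0.181). Its Y-linked partner Kdm5d (Entrez Gene 20592) had 209, 304 and 95 counts in controls and is listed at 0 in every cKO library. With a floor of 3 counts over the cKO group it was at least 194-fold lower, and at least 128-fold without cKO replicate 3, a bound added after seeing the data. Kdm5d fell (edgeR adjusted p = 0.0143), a call kept in 3 of 6 fits with 1 library left out and lost without control replicate 1 (edgeR adjusted p = 0.0914), without control replicate 2 (0.0984) and without control replicate 3 (0.0601). It was also lost with limma-voom (adjusted p = 0.0787). Control libraries gave 736, 815 and 439 counts for Eif2s3y, another Y-linked gene, whereas cKO replicates 1, 2 and 3 gave 0, 0 and 504. cKO replicate 3 thus held Y-linked reads while listing Kdm5d at 0, and it is the library with many genes listed at 0, so its 0 for Kdm5d is not read as an absence of the transcript. Ddx3y, also Y-linked, had reads in every control and was listed at 0 in every cKO library. In cKO replicates 1 and 2, where these Y-linked genes were all at 0, the lack of Y-linked reads and the genotype cannot be told apart. Embryo sex may therefore differ between the groups along with genotype, and it was not a term in the fits. Its part in the group differences, including those of Kdm5d and the X-linked Kdm5c, was not tested. Kdm5d made up 4.31 to 12.5% of the summed KDM5 family FPKM (read fragments scaled to gene length and library size) in controls. The summed family level, Kdm5a to Kdm5d, was 31.8, 39.5 and 35.8 FPKM in controls and 34.3, 35.9 and 36.3 FPKM in cKO, and the groups overlapped. Kdm5b alone made up 59.2 to 66.4% of that sum in controls and 70.4 to 78.9% in cKO, a share that the absence of Kdm5d reads raises by construction.

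Levels between genes were compared per length with the deposited FPKM. In controls the order was Kdm2b (38.5 ± 6.30 FPKM, SD, n = 3), Kdm5b (22.3 ± 3.01), Kdm1a (18.4 ± 4.69), Kdm1b (11.0 ± 1.11), Kdm5a (8.01 ± 0.195) and Kdm2a (7.19 ± 1.21). Kdm2b was above all others in every control library, while the ranges of the neighbours Kdm5b and Kdm1a, and of Kdm5a and Kdm2a, overlapped. The same order of means was found in cKO, at 36.4 ± 9.23, 26.4 ± 2.25, 17.9 ± 2.25, 15.4 ± 3.24, 6.82 ± 0.578 and 5.35 ± 2.22 FPKM. There the overlapping neighbours were Kdm1a and Kdm1b, and again Kdm5a and Kdm2a. The 6 genes together came to 104, 102 and 109.8 FPKM in controls and 98.7, 105 and 121 FPKM in cKO, so their summed level overlapped between groups. Each FPKM rests on 1 length per gene, which need not be that of the transcripts made in these cells.

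**Figure D3:**
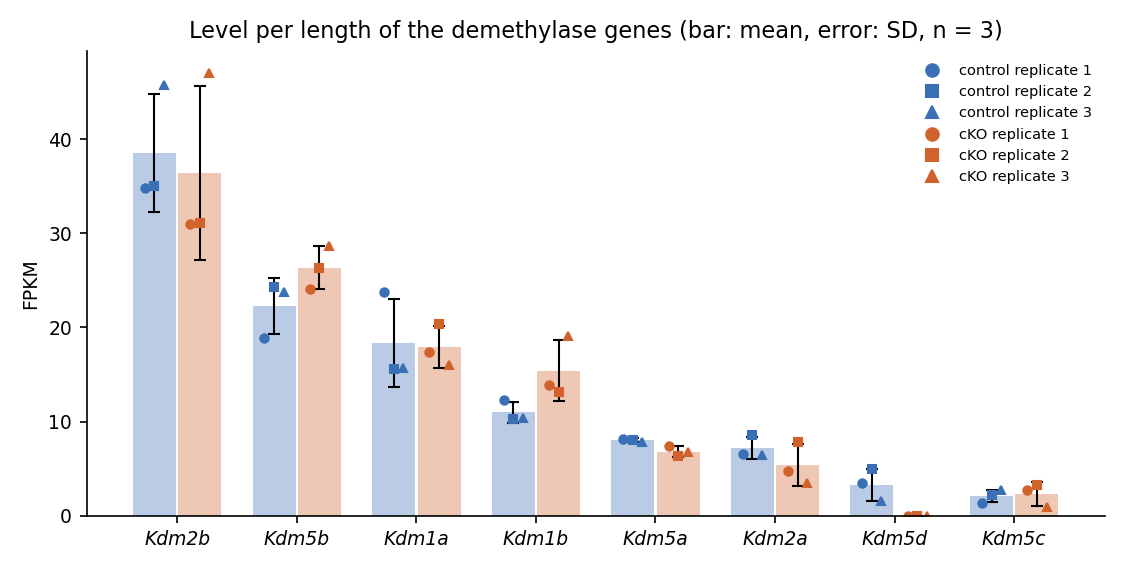
Deposited FPKM (y axis, from 0) of the 6 genes and of Kdm5c and Kdm5d, ordered by the control mean, with bars for means, error bars for SD and points for the 3 libraries of each group. Kdm2b is highest in both groups, and Kdm5d is at 0 in all cKO libraries.

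Each family holds an autosomal pair of paralogs, and their balance was measured as the ratio of FPKM in each library and compared on the log2 scale. The 3 pairs were tested with exact two-sided permutation tests, whose smallest possible p with 3 against 3 libraries is 0.1, so no pair could pass 0.05. Kdm5a over Kdm5b was 0.433, 0.332 and 0.327 in controls and 0.308, 0.239 and 0.235 in cKO. All cKO libraries had less Kdm5a relative to Kdm5b than all controls, though cKO replicate 1 was close to control replicates 2 and 3 (log2 difference -0.48, SE 0.183, exact p = 0.1, adjusted over the 3 pairs 0.3). Kdm1a over Kdm1b was 1.94, 1.52 and 1.51 in controls and 1.25, 1.55 and 0.836 in cKO, where Kdm1b exceeded Kdm1a in replicate 3 alone (log2 difference -0.49, SE 0.286, exact p = 0.3, adjusted 0.450). Kdm2a over Kdm2b was 0.188, 0.245 and 0.141 in controls and 0.155, 0.251 and 0.0735 in cKO (log2 difference -0.40, SE 0.564, exact p = 0.7, adjusted 0.7). In both groups replicate 2 was the highest and replicate 3 the lowest for this pair. Without cKO replicate 3 the log2 differences were -0.41 for Kdm5a over Kdm5b, -0.24 for Kdm1a over Kdm1b and 0.078 for Kdm2a over Kdm2b.

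**Figure D4:**
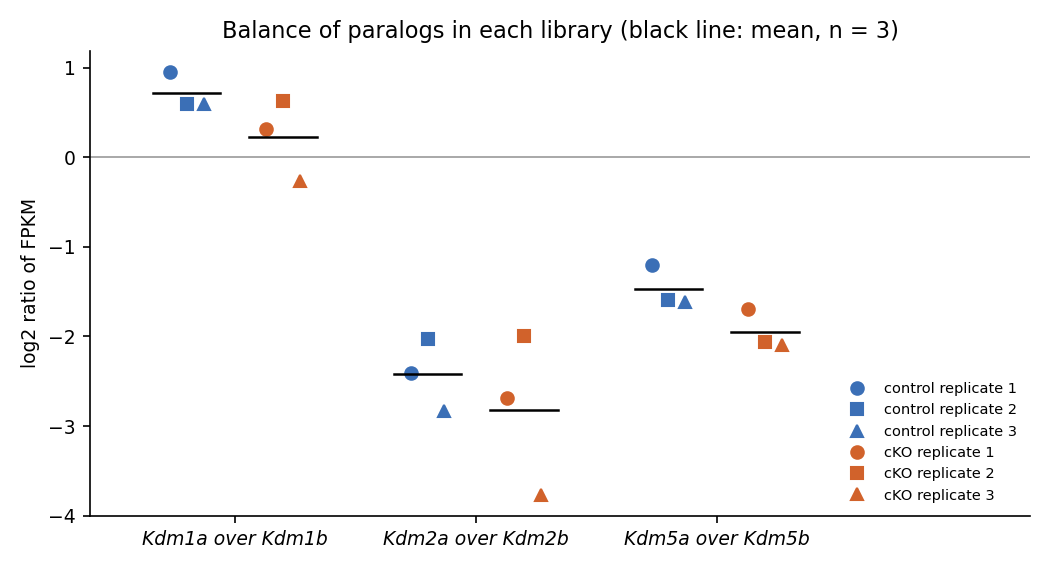
Log2 ratio of FPKM (y axis) for the 3 paralog pairs in each library, with the group mean as a black line. For Kdm5a over Kdm5b the cKO libraries, from -2.09 to -1.70, sit below the controls, from -1.61 to -1.21, while the other pairs overlap.

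The genes whose profile over the 6 libraries was most like that of each member were taken by the smallest root mean square difference in centred log2 CPM among the genes tested. They were Sdr39u1 and Zcchc10 for Kdm1a (0.0806 and 0.0859), Snrnp48 and Got1 for Kdm1b (0.0394 and 0.0510), Dand5 and Krba1 for Kdm2a (0.114 and 0.117), Wbp11 and Rhoj for Kdm2b (0.0434 and 0.0503), Phf6 and Imp4 for Kdm5a (0.0359 and 0.0381) and Cactin and Nedd9 for Kdm5b (0.0251 and 0.0313). None of these 12 genes was itself called, which largely follows from their choice as genes like members that were not called. The number of genes within 0.1 of a member ranged from 0 for Kdm2a to 134 for Kdm5a, so the nearest neighbours of Kdm5a were chosen from many.

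The partners with which these enzymes work are read against the 7.11% of all genes called with all libraries and the 28.5% called without cKO replicate 3, and no list below is set apart from these shares by a test. Of 17 tested genes of the LSD1 complexes, 1 rose, 0 fell and 16 were not called. The median log2 fold change was -0.15, and -0.16 without cKO replicate 3. Hmg20b, a subunit of the CoREST complex, rose from 39.5 ± 4.35 to 80.2 ± 10.3 CPM, 1.02 on the log2 scale (SE 0.171, edgeR adjusted p = 0.0202), with all cKO libraries above all controls. This call was kept without cKO replicate 3 and lost without control replicate 1 (edgeR adjusted p = 0.0966), without control replicate 2 (0.104), without control replicate 3 (0.0827), without cKO replicate 1 (0.0509) and without cKO replicate 2 (0.0698). Zmym2, a zinc finger protein of the same complexes, had the next smallest p (log2 fold change -0.70, SE 0.172, edgeR adjusted p = 0.0615), and was called with DESeq2 (0.0107), limma library weights (0.00879) and a minimum of 10 counts in every library (0.0478). Without cKO replicate 3, 4 of these genes fell (Hdac1, Phf21a, Zmym2 and Zmym3) and Hmg20b rose, though Phf21a is itself listed at 0 in that library.

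Of 9 tested genes of PRC1.1, the complex that KDM2B recruits, 0 were called (edgeR, 1 at an unadjusted p under 0.05, median -0.30). Without cKO replicate 3 the median was -0.052, and 4 of 9 had an unadjusted edgeR p under 0.05, beside 39.3% of all genes. Skp1, which KDM2B binds through its F-box, was at 411 ± 29.0 CPM in controls and 484 ± 9.0 CPM in cKO (adjusted p = 0.159), and Ring1, a ubiquitin ligase subunit, at 8.83 ± 1.17 and 3.71 ± 0.839 CPM (adjusted p = 0.248). Ring1 fell without cKO replicate 3 (adjusted p = 0.0456). Rybp, another PRC1.1 gene, was listed at 0 in cKO replicate 3.

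Of 10 tested partners of KDM5 proteins, 1 fell and 0 rose (median -0.015, and 0.083 without cKO replicate 3). Rbbp7, a histone-binding protein shared with several other chromatin complexes, fell from 1198 ± 55.5 to 631 ± 68.4 CPM, -0.93 on the log2 scale (SE 0.104, edgeR adjusted p = 0.00706). The call was lost only without control replicate 3 among the tests with 1 library left out (adjusted p = 0.0529). Rb1, the retinoblastoma gene, had the next smallest p (log2 fold change 0.45, adjusted p = 0.391), and it rose without cKO replicate 3 (0.63, adjusted p = 0.0298), as did Sin3b.

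Of 15 other histone demethylases tested, 1 fell and 0 rose (median -0.28, and -0.12 without cKO replicate 3). The gene that fell was Uty, the Y-linked paralog of Kdm6a, with reads in each control and listed at 0 in every cKO library, including replicate 3 with its Eif2s3y reads and its many listed zeros (edgeR adjusted p = 0.00661). That call was lost without control replicate 1 (edgeR adjusted p = 0.0568) and without control replicate 2 (0.0531). For Uty, as for Kdm5d, the part of embryo sex was not tested. Kdm7a had the next smallest p (log2 fold change 0.74, SE 0.305, adjusted p = 0.210), and it rose without cKO replicate 3 (adjusted p = 0.0182), where Riox1 and Riox2 fell besides Uty. Of the 6 H3K4 methyltransferase genes, the catalytic subunits that ASH2L serves, 0 were called with or without that library. At an unadjusted edgeR p under 0.05 there were 0 and 2, and the median was 0.38 with and 0.21 without it. Kmt2c (0.62, adjusted p = 0.264) and Kmt2a (0.75, adjusted p = 0.353) had the smallest p of this list. Summed over the 6 methyltransferase genes the level was 4.93 to 5.19 FPKM in controls and 5.57 to 7.94 FPKM in cKO. The ratio of the summed demethylase level to it was 20.9 ± 1.1 in controls and 16.3 ± 1.27 in cKO (SD, n = 3 each), without overlap, as a description with no test. Among single genes, 37.4% were likewise without overlap in CPM. Kdm2b, whose count cannot be read as demethylase transcripts, made up a mean 36.5% of the demethylase sum in controls and 33.3% in cKO. The ratio therefore does not measure a balance of the enzymes.

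**Figure D5:**
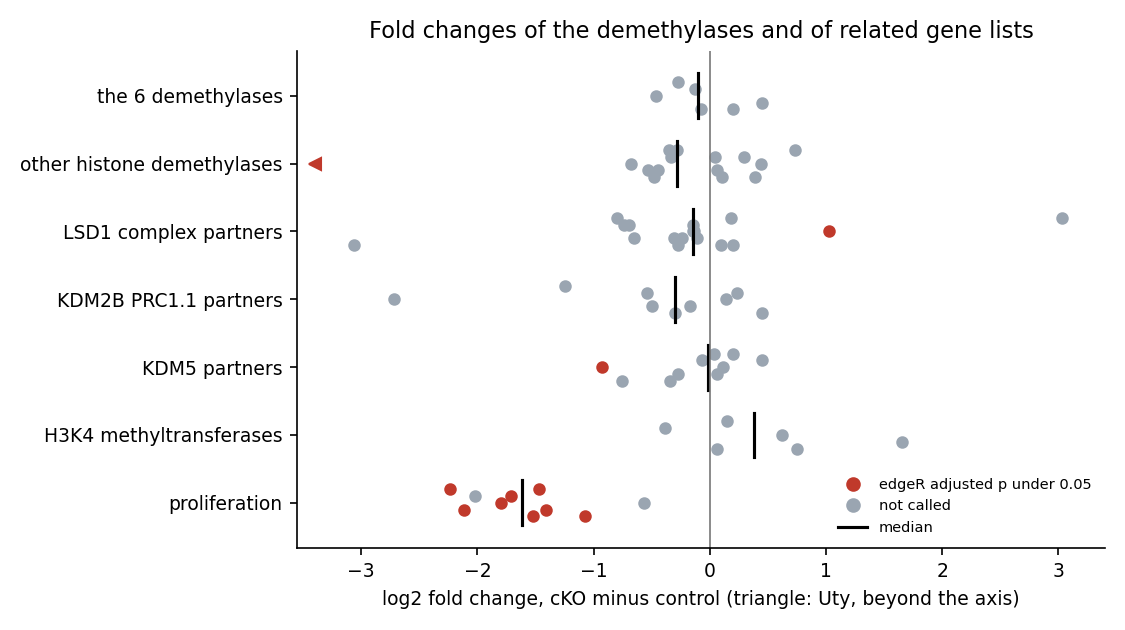
Log2 fold change, cKO minus control (x axis), of each tested gene of the 6 demethylases and of related lists, red where the edgeR adjusted p is under 0.05, with the list median as a black line. The 6 demethylases lie between -0.47 and 0.45 and none is red, while 8 of 10 proliferation genes are red, and Uty lies beyond the left edge.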

How the data were processed

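The authors deposited raw read counts per gene and FPKM values for 6 libraries. Per the submitters' processing notes, HISAT2, HTSeq, Cufflinks, DESeq and GRCm39 were used, without versions or roles, and per the labels libraries were made with a TruSeq Stranded mRNA kit. Whether strand was used in counting was not stated. Dividing each count by a single gene length and a single library factor gives back the deposited FPKM (largest relative deviation 2.53e-07), so FPKM is no independent measurement. Counts were fitted over all genes with edgeR 4.0.16 (R 4.3.3): filterByExpr, TMM factors, robust quasi-likelihood F-test with group as the only term, and Benjamini-Hochberg adjustment over the 13047 genes left. A gene was called at an adjusted p under 0.05. The SE is the log2 fold change divided by the square root of F, and 95% intervals use the t quantile at the fitted degrees of freedom. CPM is TMM-scaled, and centred log2 CPM used a prior count of 2. Limma 3.58.1 and DESeq2 1.42.0 were alternatives, with other filters, RLE factors, a replicate block and each library left out. The fits were tested on simulated counts. Genes named were the 6 members, Ash2l, Kdm5c, Kdm5d, the 2 genes with the smallest p of each partner, demethylase or methyltransferase list, and the 2 genes most like each member. Other genes were named after their values were seen, and the overlapping genes come from exons in GENCODE M21 (GRCm38). Promoter windows are from RefSeq, GRCm38.p6. Members and lists were chosen with earlier results of these data known. The 95% intervals rest on the spread between libraries. The floor of 3 counts covers counting error only, since PCR copies are not independent molecules.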

Additional observations from a re-analysis of the deposited data

How the results depend on the processing

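None of the 6 demethylase genes was called under any of the 14 alternatives, which were other size factors, DESeq2, limma-voom, limma with library weights, a looser and a stricter filter, a replicate block, a non-robust fit and each library left out in turn. The lowest adjusted p of any of them was 0.0595, for Kdm2b without cKO replicate 3. The Kdm1a estimate changed sign with library weights (0.079) and without control replicate 1 (0.15), that of Kdm2b without control replicate 3 (0.021), and the Kdm2a over Kdm2b difference without cKO replicate 3 (0.078). With 1 library left out, log2 fold changes ranged from -0.20 to 0.15 for Kdm1a, 0.26 to 0.55 for Kdm1b, -0.83 to -0.24 for Kdm2a, -0.36 to 0.021 for Kdm2b, -0.35 to -0.21 for Kdm5a and 0.086 to 0.25 for Kdm5b. The paralog difference ranged from -0.81 to 0.078 for Kdm2a over Kdm2b. Kdm5c, not a member, changed sign with limma-voom (-0.042), without control replicate 1 (-0.13), without cKO replicate 1 (-0.045) and without cKO replicate 2 (-0.22), and was highest without cKO replicate 3 (0.48). The cause of these changes was not tested.

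With all libraries 928 genes were called. The number was 2172 with DESeq2, 3337 with library weights and 121 to 3897 with 1 library left out, highest without cKO replicate 3. Without that library 4 of 15 other demethylases, 5 of 17 LSD1 partners, 1 of 9 PRC1.1 partners and 3 of 10 KDM5 partners were called, beside 28.5% of all genes. Calls that other tools changed were Kdm5d, lost with limma-voom (0.0787), Zmym2, gained with DESeq2, library weights and the stricter filter, and Kdm7a, Skp1 and Rb1, gained with library weights (0.0176, 0.0439 and 0.0286, limma adjusted p). With the replicate number as a block 23 genes were called and the call of Ash2l was lost (edgeR adjusted p = 0.0537), as were those of Kdm5d, Uty, Hmg20b and Rbbp7. Deviations of same-numbered libraries from their group means correlated at -0.0220 to 0.0250 across genes, which are not independent. Such deviations sum to 0 over the 3 libraries of a group, and cKO replicate 3 stood apart. These values therefore cannot decide whether the numbers pair the libraries. Under the block Kdm2b was at -0.14 (SE 0.0947) and Kdm2a at -0.53 (SE 0.226), neither called.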
